A study of Mus musculus with 2 samples.

Results

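The interleukin-1 family and its inflammasome are described here through 10 genes, found by their symbols among the 32285 genes counted in 2 droplet single-cell RNA libraries. They are the ligand genes Il1b, Il1a and Il18, the antagonist Il1rn, the receptors Il1r1, Il1r2, Il18r1 and Il18rap, the sensor Nlrp3 and the protease Casp1, and all 10 had UMIs in both libraries. The cells were live CD45+CD31- cells, that is, immune cells sorted as lacking CD31, from hand-picked pancreatic islets of female mice aged 12 weeks. One library came from NOD mice (WT NOD), a strain that develops autoimmune diabetes spontaneously, and the other was labelled NOD.Cxcl16-/-, a deletion of the chemokine gene Cxcl16 on the same strain. Each group was 1 library, and the number of mice behind it is not given in the sources used here, so no test between genotypes was possible and every difference below is one between 2 libraries.

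Interleukin-1β and interleukin-18 are made as inactive precursors. Caspase-1, the product of Casp1, cuts both to their active forms after a sensor such as NLRP3 has assembled an inflammasome, whereas interleukin-1α needs no such cut. Interleukin-1α and interleukin-1β signal through IL-1R1 (Il1r1), the antagonist IL-1RA (Il1rn) occupies that receptor without a signal, and the decoy IL-1R2 (Il1r2) binds ligand without passing a signal on. Interleukin-18 binds IL-18Rα (Il18r1) and needs the accessory chain Il18rap to signal.

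Values are unique molecular identifiers (UMIs), counts of captured RNA molecules at their 3′ end, summed over the cells of a class and given per 1000000 UMIs of that class (CPM), with WT NOD first. Intervals are exact 95% Poisson or binomial (Clopper-Pearson) intervals and cover counting error only, not differences between mice. The UMIs are not scaled for transcript length, so levels are compared within a gene. After filtering, 12252 WT NOD barcodes (median 4269 UMIs) and 10214 barcodes of the other library (median 5189 UMIs) were kept, and 45 barcode sequences occurred in both libraries. Cxcl16 RNA was found in both, at 103 CPM in WT NOD and 102 CPM in the library labelled NOD.Cxcl16-/- over all barcodes, and at 911 and 538 CPM in macrophage-like cells. Which exon is deleted is not given in the sources used here, so a 3′ count does not check the genotype, and the second library is called by its label throughout.

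Cells were assigned by marker genes that did not include any of the 10. The macrophage-like class held 62 and 150 cells, the monocyte-like class 29 and 28, the cDC1-like class 43 and 55, the migratory DC-like class 46 and 57, and the plasmacytoid DC-like class 34 and 30. The largest myeloid class, with 257 and 466 cells, was gated through the type 2 dendritic cell genes Sirpa, Flt3, Zbtb46, Cd209a, Clec10a and Mgl2. Its 10 leading genes held 0 markers of that type and 2 from the non-classical monocyte list, Cfp and Ifitm3, so it is called Flt3-Zbtb46 myeloid and given no cell type name. The insulin genes Ins1 and Ins2 were among the 10 leading genes of the macrophage-like class. There, 6 of 6 endocrine genes had UMIs and summed to 13978 and 11870 CPM, against 515 and 824 CPM in Flt3-Zbtb46 myeloid cells, and their part in the values below was not tested. Neutrophil genes, 8 in the list, summed to 2.38 and 3.91 CPM over all kept barcodes, with 1 of 8 detected in macrophage-like cells (28.9 and 22.2 CPM) and 2 of 8 in monocyte-like cells (30.6 and 68.7 CPM).

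Many of these transcripts sat in barcodes that carried UMIs of more than 1 lineage. Such barcodes were 1176 and 1258 of those kept, with a median of 17924.5 and 21164 UMIs, a depth like that of cDC1-like (21324 and 19402) and plasma cell-like cells (23473 and 25583) and above that of CD4 T-like cells (4249 and 4742). They held 32.6% and 35.9% of all kept UMIs. Against that share, they held 56.4% and 56.5% of all Il1b UMIs, 75.5% and 61.3% of Il1a UMIs, 62.0% and 61.2% of Il1rn UMIs and 60.7% and 55.7% of Nlrp3 UMIs. For the lymphoid receptor Il18r1 the share was 26.7% and 27.3%, below that of all UMIs. These barcodes were left out of every class below. A score from simulated doublets, not used for the reported values, marked 917 of the 1176 and 703 of the 1258.

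**Figure D1:**
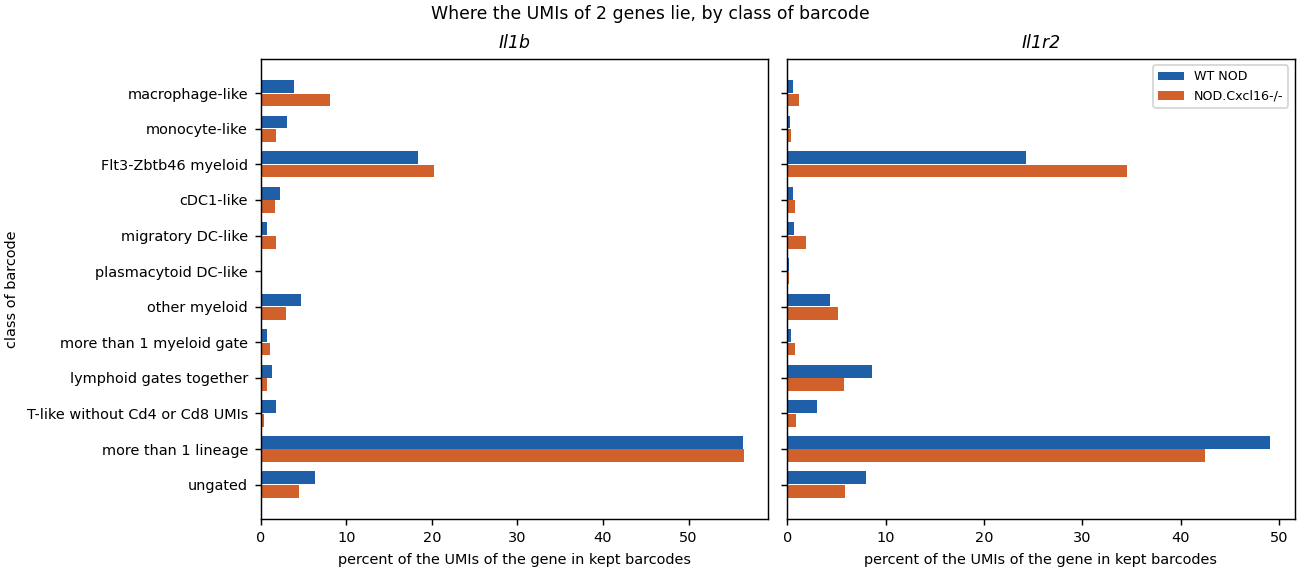
Percent of the Il1b UMIs (left) and Il1r2 UMIs (right) of all kept barcodes that lay in each class of barcode, with WT NOD and the library labelled NOD.Cxcl16-/- side by side. Barcodes of more than 1 lineage held 56.4% and 56.5% of the Il1b UMIs, and among the gated classes Flt3-Zbtb46 myeloid cells held the most of both genes.

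Il1b was a transcript of monocyte-like, macrophage-like and Flt3-Zbtb46 myeloid cells, whereas the levels of Il1a and of Il18 were highest in the first 2 of these and lower in the last. The sequences around the start sites of the 3 ligand genes are shown because of this difference in spread. They are RefSeq's, in build GRCm38.p6, written 5′ to 3′ on the gene's strand from 250 bases before the start site to 50 bases after it. Capitals mark matches to TATAAA (the TATA box, on the strand shown), TTGNGNAA (a C/EBP motif, either strand) and GAGGAAG (a PU.1 motif, either strand). C/EBP and PU.1 are transcription factors of myeloid cells. The windows lie at chr2:129371090-129371389 (minus strand) for Il1b, chr2:129309923-129310222 (minus strand) for Il1a and chr9:50554450-50554749 (plus strand) for Il18.
Il1b: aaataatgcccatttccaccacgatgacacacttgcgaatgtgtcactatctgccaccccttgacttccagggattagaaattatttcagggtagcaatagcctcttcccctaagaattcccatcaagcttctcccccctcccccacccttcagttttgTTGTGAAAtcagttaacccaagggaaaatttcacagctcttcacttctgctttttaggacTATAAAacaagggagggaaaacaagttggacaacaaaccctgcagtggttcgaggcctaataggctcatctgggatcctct
Il1a: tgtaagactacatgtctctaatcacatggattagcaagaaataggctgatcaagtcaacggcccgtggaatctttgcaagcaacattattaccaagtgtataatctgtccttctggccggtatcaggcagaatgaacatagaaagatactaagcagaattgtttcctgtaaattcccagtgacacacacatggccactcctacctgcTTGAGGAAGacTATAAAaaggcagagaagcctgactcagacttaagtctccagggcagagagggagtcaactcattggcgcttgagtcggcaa
Il18: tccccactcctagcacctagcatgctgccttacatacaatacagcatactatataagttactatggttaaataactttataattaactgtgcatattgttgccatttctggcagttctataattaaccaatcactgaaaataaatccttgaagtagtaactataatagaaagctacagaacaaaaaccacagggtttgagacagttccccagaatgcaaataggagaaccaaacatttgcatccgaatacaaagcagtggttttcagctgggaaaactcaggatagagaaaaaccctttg
In the Il1b window TATAAA stood at -31 from the start site and the C/EBP match TTGTGAAA at -91. In the Il1a window TATAAA stood at -32, and the C/EBP match TTGAGGAA at -43 overlapped the PU.1 match GAGGAAG at -41. No match to the 3 motifs was found in the Il18 window. Of 32851 mouse promoter windows of this length, 8.32% held TATAAA, 13.3% the C/EBP motif and 13.6% the PU.1 motif. Matches also stood in windows of the lymphoid receptor genes Il18rap (C/EBP at -54, PU.1 at -94 and -79) and Il18r1 (PU.1 at -7), and of Il1rn and Nlrp3. A match describes letters in the window and not a bound site, and no link between motif and level was tested.

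Il1b stood highest in monocyte-like cells, at 2438 CPM (interval 2252 to 2635, 637 UMIs) and 2036 CPM (1889 to 2191, 711 UMIs). Macrophage-like cells had 1355 CPM (1262 to 1452, 796 UMIs) and 1798 CPM (1736 to 1862, 3154 UMIs). Flt3-Zbtb46 myeloid cells had 1249 CPM (1209 to 1289, 3731 UMIs) and 1403 CPM (1372 to 1435, 7878 UMIs). The last 2 classes overlapped in WT NOD, and macrophage-like cells lay higher in the library labelled NOD.Cxcl16-/-. Below them came cDC1-like cells with 493 and 599 CPM, migratory DC-like cells with 247 and 918 CPM, and plasmacytoid DC-like cells with 153 and 269 CPM, the last from 2 and 6 cells. CD8 T-like, CD4 T-like, Treg-like and B-like cells lay between 3.86 and 12.3 CPM.

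The share of cells with an Il1b UMI gave the same split between gated myeloid and lymphoid cells. After each cell was thinned to 2000 UMIs, 73.3% of 45 and 75.9% of 133 macrophage-like cells had one, against 0.681% of 1615 and 1.41% of 1916 B-like cells, a type that should lack the gene. Before thinning the shares were 75.8% and 86.7% in macrophage-like cells (median 11101 and 11128.5 UMIs) and 2.06% and 2.12% in B-like cells (median 4491 and 4549 UMIs). The shares of CD8 T-like, CD4 T-like and Treg-like cells after thinning, 0.732% to 1.51%, had intervals that overlapped those of B-like cells and are read as background. Single barcodes made up the NK-like and gamma-delta T-like values. In the library labelled NOD.Cxcl16-/-, 34 of the 38 Il1b UMIs of NK-like cells came from 1 barcode of 14770 UMIs, which also held 6 Il1a, 9 Il1rn and 7 Nlrp3 UMIs. In WT NOD, 35 of the 36 in gamma-delta T-like cells came from 1 barcode of 17557 UMIs, so no lymphoid level of Il1b is read from these classes.

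**Figure D2:**
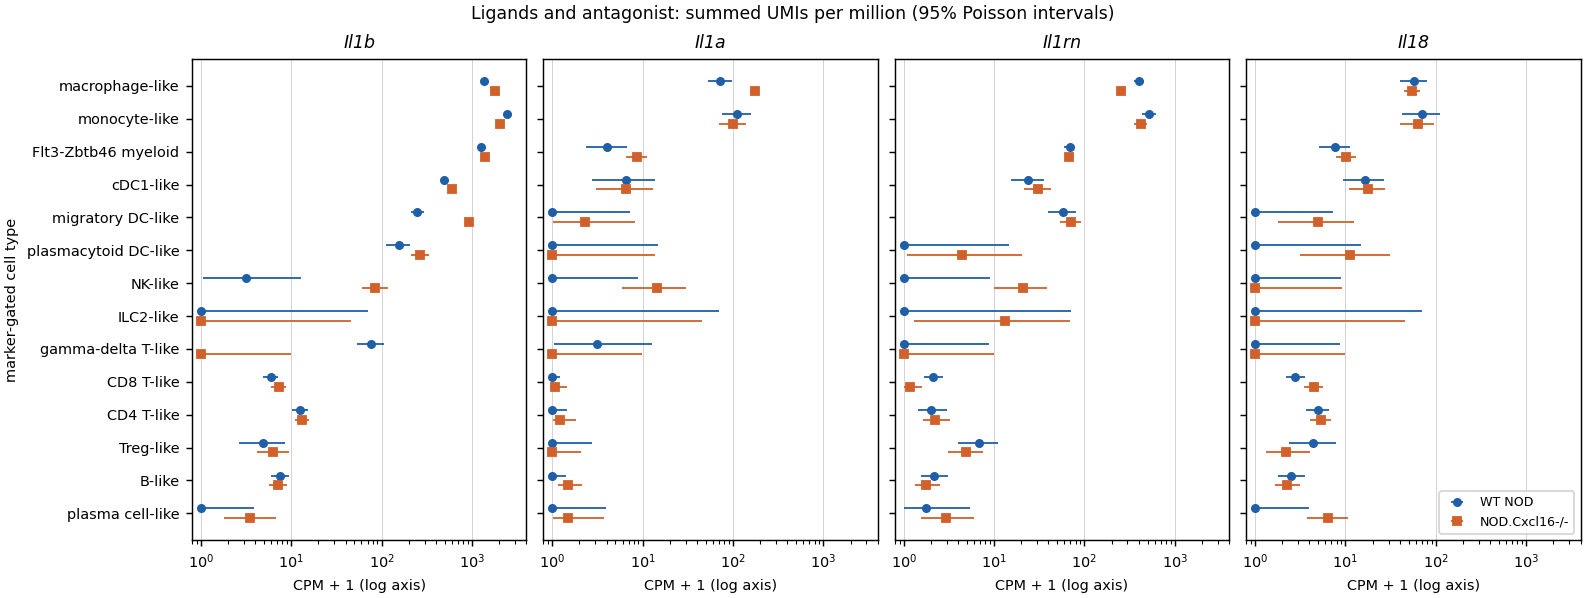
Il1b, Il1a, Il1rn and Il18 as CPM + 1 (log axis) in 14 marker-gated classes, each point the summed UMIs of 1 library and each bar a 95% Poisson interval. Il1b was at 153 CPM or more in the 6 myeloid classes of both libraries, while Il1a, Il1rn and Il18 were highest in macrophage-like and monocyte-like cells.

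By number of transcripts, Flt3-Zbtb46 myeloid cells were the main gated source of Il1b RNA. They held 61.4% of 6077 and 58.4% of 13482 gated Il1b UMIs, macrophage-like cells 13.1% and 23.4%, and monocyte-like cells 10.5% and 5.27%. The transcript was unevenly spread among them. Of Flt3-Zbtb46 myeloid cells thinned to 5000 UMIs, 36.8% of 223 and 31.6% of 418 had no Il1b UMI, the median cell had 2 and 3, and the highest had 48 and 59. The 23 and 42 cells with most Il1b held 46.4% and 43.3% of the Il1b UMIs. Of macrophage-like cells thinned in the same way, 22.5% of 40 and 10.4% of 115 had none, and their median was 5 and 7 UMIs. Flt3-Zbtb46 myeloid cells with a UMI of the lectin genes Cd209a or Clec10a (43 and 108 cells) had 1710 and 2194 CPM of Il1b, and those without (214 and 358 cells) had 1168 and 1156 CPM. That division is a range and not a type, since 230 of 257 and 398 of 466 cells lay within 1 UMI of the dividing line.

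Il1a lies 54.6 kb from Il1b on chromosome 2, yet its RNA was found in far fewer classes. Macrophage-like cells had 71.5 CPM (42 UMIs in 14 cells) and 173 CPM (303 UMIs in 64 cells). Monocyte-like cells had 111 CPM (74.3 to 159) and 100 CPM (69.8 to 139). The interval overlapped that of macrophage-like cells in WT NOD (51.5 to 96.6 CPM) and lay below it in the library labelled NOD.Cxcl16-/- (154 to 193 CPM). Flt3-Zbtb46 myeloid cells had 3.01 CPM (9 UMIs) and 7.66 CPM (43 UMIs). Relative to Il1b, macrophage-like cells held 5.28 and 9.61 Il1a UMIs for each 100 Il1b UMIs, and Flt3-Zbtb46 myeloid cells 0.241 and 0.546. The intervals of the 2 classes did not overlap in either library.

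Il1rn, the receptor antagonist, was highest in monocyte-like and macrophage-like cells. Monocyte-like cells had 520 CPM (437 to 616) and 421 CPM (356 to 495). Macrophage-like cells had 405 CPM (355 to 460, 238 UMIs) and 253 CPM (230 to 277, 443 UMIs). Flt3-Zbtb46 myeloid cells had 67.9 and 66.8 CPM, and migratory DC-like cells 56.6 and 70.4 CPM, which overlapped. Il1rn UMIs for each 100 Il1b UMIs in macrophage-like cells were 29.9 (25.8 to 34.6) in WT NOD and 14.0 (12.7 to 15.5) in the library labelled NOD.Cxcl16-/-. In monocyte-like cells this measure was 21.4 and 20.7, and in Flt3-Zbtb46 myeloid cells 5.44 and 4.76. Antagonist and agonist RNA met in the same Flt3-Zbtb46 myeloid cells. At 5000 UMIs a cell, Il1rn was found in 22.0% of 141 WT NOD cells with an Il1b UMI and in 1.22% of 82 without one, and in 19.6% of 286 and 3.03% of 132 in the other library. The intervals did not overlap in either library. In macrophage-like cells they overlapped, with 67.7% of 31 against 44.4% of 9 in WT NOD and 40.8% of 103 against 50% of 12 in the library labelled NOD.Cxcl16-/-.

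**Figure D3:**
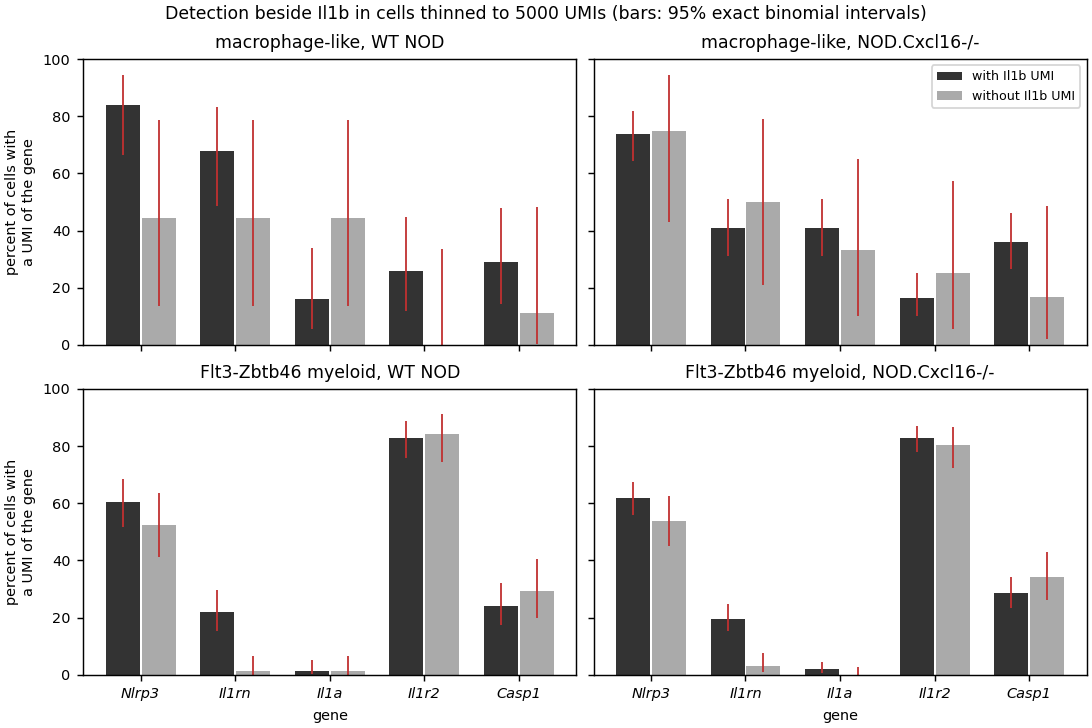
Percent of cells with at least 1 UMI of Nlrp3, Il1rn, Il1a, Il1r2 or Casp1 among cells with and without an Il1b UMI, each cell thinned to 5000 UMIs, with exact 95% binomial intervals. In Flt3-Zbtb46 myeloid cells Il1rn was found in 22.0% and 19.6% of cells with Il1b and in 1.22% and 3.03% of those without, while Il1r2 lay between 80.3% and 84.1% in all 4 groups.

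Il18 gave few UMIs and showed no difference between the libraries beyond counting error in any myeloid class with enough UMIs. Monocyte-like cells had 68.9 CPM (18 UMIs) and 63.0 CPM (22 UMIs), and macrophage-like cells 56.2 CPM (33 UMIs) and 53.6 CPM (94 UMIs). The intervals of these classes overlapped. cDC1-like cells had 15.3 and 16.6 CPM and Flt3-Zbtb46 myeloid cells 6.69 and 9.26 CPM. CD8 T-like cells had 1.80 and 3.48 CPM and CD4 T-like cells 3.94 and 4.32 CPM. Because these classes are large, they held 31 and 31 of 167 gated Il18 UMIs in WT NOD. In the other library they held 42 and 38 of 300. NK-like, ILC2-like and gamma-delta T-like cells had 0 UMIs of Il18 in both libraries, which in WT NOD allows up to 6.46 CPM in NK-like cells by the limit of 3 counts. In ILC2-like cells (12 and 19 cells) that limit was 56.4 and 36.6 CPM, so no absence is read there.

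The receptor genes lie side by side on chromosome 1, where Il1r2 (chr1:40074079-40125231), Il1r1 (chr1:40225080-40317257), Il1rl2, Il1rl1, Il18r1 (chr1:40465552-40500854) and Il18rap (chr1:40515362-40551705) fill 478 kb of GRCm38, all on the plus strand. Their RNA was nonetheless divided among different cells. Il1r2, the decoy, was highest in Flt3-Zbtb46 myeloid cells, which had 636 CPM (608 to 666, 1902 UMIs) and 861 CPM (837 to 886, 4836 UMIs). It was among the 10 leading genes of that class and was not used by its gate. The class held 69.1% and 77.3% of the gated Il1r2 UMIs. Macrophage-like cells, with 74.9 and 92.9 CPM, lay far below. Migratory DC-like cells had 92.7 and 340 CPM and monocyte-like cells 72.7 and 135 CPM. cDC1-like cells had 51.5 and 107 CPM and plasmacytoid DC-like cells 56.1 and 107 CPM. Myeloid barcodes that met no gate (114 and 123) had 374 and 661 CPM. Among lymphocytes Il1r2 was highest in Treg-like cells, at 123 CPM (109 to 139) and 95.1 CPM (84.96 to 106), and CD4 T-like cells had 24.3 and 21.8 CPM. After thinning to 2000 UMIs, 17.04% of 270 and 17.3% of 410 Treg-like cells had an Il1r2 UMI, against 2.72% of 1615 and 3.60% of 1916 B-like cells. Before thinning these shares were 33.6% and 30.3% in Treg-like cells (median 4782 and 4982 UMIs) and 5.67% and 7.94% in B-like cells.

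Il1r1, the signalling receptor, had its highest level in gamma-delta T-like cells, at 111 CPM (83.5 to 146, 53 UMIs) and 291 CPM (241 to 348, 120 UMIs). These held 28.6% of 185 and 39.5% of 304 gated Il1r1 UMIs, and the rest was spread over other classes at lower levels. Within gamma-delta T-like cells nearly all of it lay in the cells with UMIs of genes of the interleukin-17 type (Il23r, Il17a, Ccr6, Blk, Cd163l1 and Sox13). Those 32 and 53 cells had 375 CPM (277 to 497, 48 UMIs) and 488 CPM (404 to 583, 120 UMIs). The other 57 and 28 gamma-delta T-like cells had 14.4 CPM (5 UMIs) and 0 UMIs. The intervals of the interleukin-17 type overlapped between the libraries, while that type made up 32 of 89 and 53 of 81 gamma-delta T-like cells. Only 5 and 3 cells lay within 1 UMI of the dividing line. However, 39 of 89 and 12 of 81 cells lay at the threshold of the gamma-delta T-like gate itself. A gate stricter by 1 UMI held 50 and 69 cells, and its effect on the share of that type was not tested. Treg-like cells had 12.05 and 15.2 CPM of Il1r1 and CD8 T-like cells 1.51 and 0.579 CPM. Macrophage-like cells had 23.8 CPM (14 UMIs) and 11.4 CPM (20 UMIs), with overlapping intervals. Monocyte-like cells had 15.3 CPM (4 UMIs) and 14.3 CPM (5 UMIs), and Flt3-Zbtb46 myeloid cells 5.35 and 6.59 CPM. The myeloid classes high in Il1b were therefore lower in Il1r1 than gamma-delta T-like cells and higher than CD8 T-like cells.

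**Figure D4:**
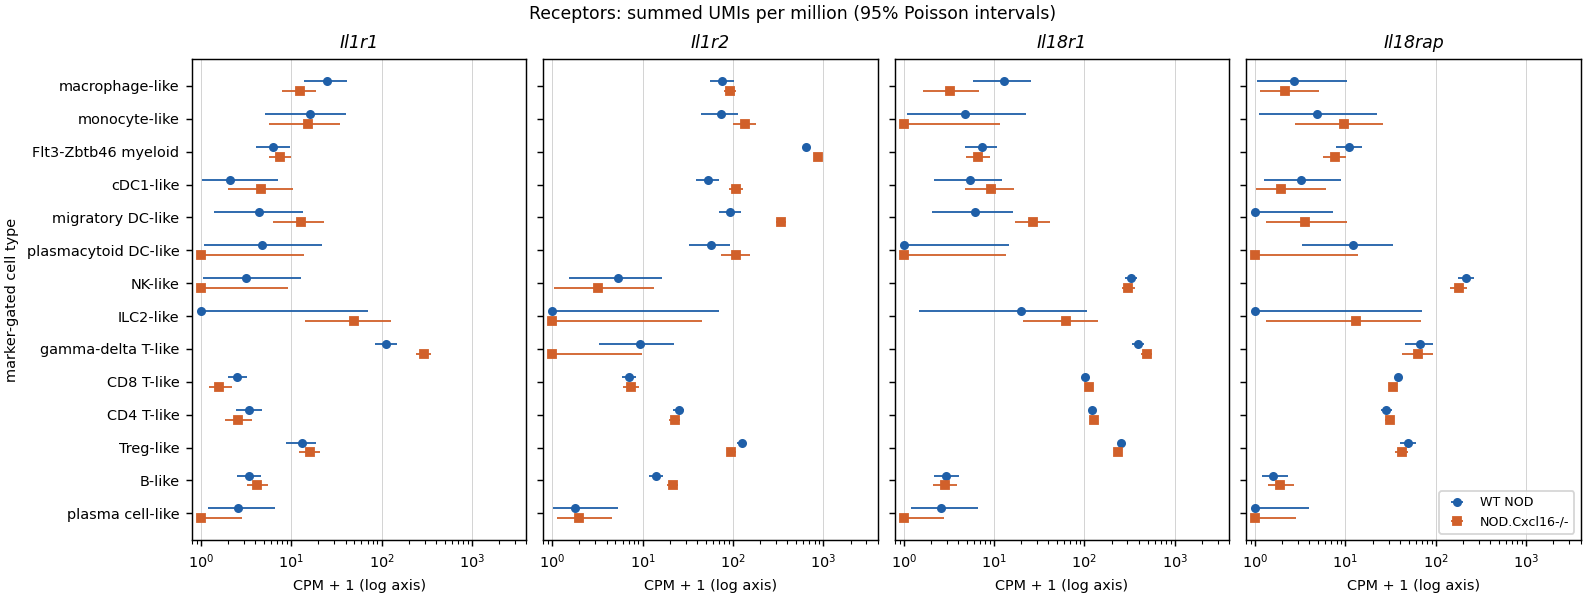
Il1r1, Il1r2, Il18r1 and Il18rap as CPM + 1 (log axis) in the 14 classes, each point the summed UMIs of 1 library and each bar a 95% Poisson interval. Il1r2 peaked in Flt3-Zbtb46 myeloid cells (636 and 861 CPM), Il1r1 in gamma-delta T-like cells (111 and 291 CPM), Il18r1 in gamma-delta T-like, NK-like and Treg-like cells, and Il18rap in NK-like cells (218 and 179 CPM).

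Il18r1, the binding chain for interleukin-18, was a lymphoid transcript. Gamma-delta T-like cells had 391 CPM (337 to 452) and 490 CPM (425 to 563), NK-like cells 330 CPM (279 to 386) and 306 CPM (257 to 361), and Treg-like cells 255 CPM (234 to 278) and 236 CPM (220 to 253). NK-like cells overlapped gamma-delta T-like cells in WT NOD but not in the library labelled NOD.Cxcl16-/-. CD4 T-like cells had 121 and 128 CPM and CD8 T-like cells 99.5 and 112 CPM. B-like cells had 1.96 and 1.86 CPM. At 2000 UMIs a cell, 52.9% of 85 and 59.3% of 81 gamma-delta T-like cells had an Il18r1 UMI (71.9% and 82.7% before thinning), against 0.0619% of 1615 and 0.157% of 1916 B-like cells (0.916% and 0.657%). Within CD8 T-like cells the effector group (Gzmk, Ccl5, Nkg7, Gzmb, Prf1, Ifng) had 141 and 161 CPM and naive-like cells 51.1 and 42.0 CPM. Within CD4 T-like cells the Th1-like group (Tbx21, Cxcr3, Ifng, Ccl5) had 196 and 225 CPM and naive-like cells 81.5 and 108 CPM. Each pair of intervals was apart in both libraries. Treg-like cells differed in this: naive-like ones had 316 and 307 CPM and a group without naive genes 292 and 284 CPM, which overlapped. Both groups lay above all Treg-like cells (255 and 236 CPM), so they do not cover the class, and its remaining cells were lower. These groups are ranges, since 88 and 59 CD8 T-like and 278 and 263 CD4 T-like cells lay within 1 UMI of a dividing line.

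Il18rap, the accessory chain, was highest in NK-like cells, at 218 CPM (177 to 264) and 179 CPM (142 to 223). Gamma-delta T-like cells had 65.2 and 63.1 CPM, Treg-like cells 48.7 and 40.8 CPM, CD8 T-like cells 37.3 and 33.0 CPM and CD4 T-like cells 27.4 and 29.999 CPM. Effector CD8 T-like cells had 60.2 and 61.8 CPM, against 7.95 and 7.87 CPM in naive-like ones. Th1-like CD4 cells had 50.9 and 61.8 CPM, against 5.37 and 12.5 CPM in naive-like ones. Both receptor chains were also read cell by cell. After thinning, Il18rap was found in 14.6% of 103 WT NOD Treg-like cells with an Il18r1 UMI and in 2.99% of 167 without one, and in 19.4% of 134 and 4.35% of 276 in the other library, and neither pair of intervals overlapped. The same held in CD4 T-like cells, with 9.91% of 232 against 3.32% of 993 and 10.5% of 257 against 4.87% of 1027. In NK-like cells they did overlap, with 44.8% of 29 against 30% of 60 and 20% of 40 against 20.5% of 44. CD8 T-like cells overlapped too, with 11.2% of 312 against 6.82% of 1612 and 6.88% of 247 against 5.43% of 1123. So did gamma-delta T-like cells, with 9.30% of 43 against 7.14% of 42 and 5.66% of 53 against 7.14% of 28.

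Nlrp3, the inflammasome sensor, was shared by the Il1b-high classes. Monocyte-like cells had 387 CPM (315 to 470) and 392 CPM (329 to 464), macrophage-like cells 308 CPM (265 to 356) and 393 CPM (365 to 424), and Flt3-Zbtb46 myeloid cells 252 CPM (235 to 271) and 249 CPM (236 to 262). cDC1-like cells had 73.4 and 75.7 CPM, and CD8 T-like, CD4 T-like, Treg-like and B-like cells lay between 0.596 and 4.43 CPM. In Flt3-Zbtb46 myeloid cells Nlrp3 was found in 60.3% of cells with Il1b and 52.4% without in WT NOD, and in 61.9% and 53.8% in the other library, with overlapping intervals. Casp1 was not limited to myeloid cells. It stood at 61.3 and 78.1 CPM in macrophage-like cells and 74.96 and 73.4 CPM in Flt3-Zbtb46 myeloid cells. CD8 T-like cells had 49.4 and 41.6 CPM, CD4 T-like cells 43.1 and 37.5 CPM and B-like cells 37.9 and 47.9 CPM. Treg-like cells, with 21.7 and 17.9 CPM, were lower than these 3 in both libraries.

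The libraries were compared class by class as log2 of (CPM + 1) in the library labelled NOD.Cxcl16-/- over that in WT NOD, for genes with at least 30 UMIs over both, and a gene was counted when it passed 1.5-fold. In macrophage-like cells 3 of 8 such members passed it, where 20.8% of 6377 genes did. Il1a was higher (log2 1.26, interval 0.80 to 1.77), Il1rn was lower (-0.68, -0.91 to -0.45), and Il1r1 was lower with an interval that included 0 (-1.001, -2.12 to 0.03). Without the limit on UMIs of other lineages, the Il1rn value was -0.0084, and with removal of barcodes by doublet score the Il1r1 value was 0.46. Il1b stood at 0.41 (0.30 to 0.52) and Nlrp3 at 0.35 (0.11 to 0.60), below the fold. In Flt3-Zbtb46 myeloid cells 1 of 10 members passed it, where 9.53% of 9847 genes did. That gene was Il1a (1.11, 0.29 to 2.57), on 9 and 43 UMIs. Thinned to 2000 UMIs a cell, it had 3 and 6 UMIs in one random draw (0.09) and 3 and 9 in another (0.61). Il1r2 stood at 0.44 (0.36 to 0.51) and Il1b at 0.17 (0.11 to 0.23). The members' median was 0.33 in macrophage-like cells and 0.07 in Flt3-Zbtb46 myeloid cells, and the median of all genes in both was -0.01.

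In migratory DC-like cells 3 of 5 members passed the fold, all higher in the library labelled NOD.Cxcl16-/-, where 21.8% of 4619 genes passed it in either direction. Il1b stood at 1.89 (1.63 to 2.16), Il1r2 at 1.87 (1.45 to 2.33) and Nlrp3 at 1.08 (0.40 to 1.86). Without the limit on other lineages these fell to 0.62, 0.67 and -0.023. A doublet score, not used for these values, marked 33 of the 46 WT NOD cells of this class and none of the 57 in the other library. Without the marked cells the values were 1.20 for Il1b, 1.897 for Il1r2 and 0.22 for Nlrp3, the last below the fold. In gamma-delta T-like cells 2 of 4 members passed the fold, where 21.2% of 4282 genes did. They were Il1r1 (1.38, 0.91 to 1.88) and Il1b, whose UMIs came from 1 barcode as given above. Il18r1 stood at 0.32 (0.03 to 0.62) there. The Il1r1 value was 0.76 with a gate stricter by 1 UMI.

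**Figure D5:**
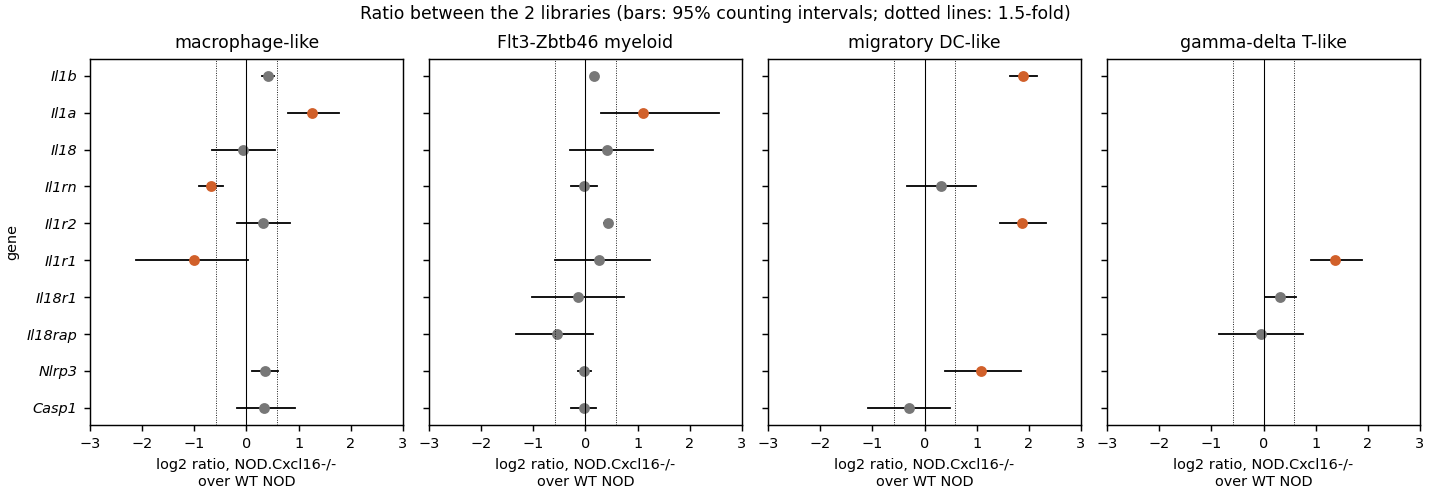
Log2 ratio of CPM + 1, the library labelled NOD.Cxcl16-/- over WT NOD, for the members with enough UMIs in 4 classes, with 95% counting intervals and without Il1b in gamma-delta T-like cells (-6.26, beyond the axis); orange marks ratios past 1.5-fold. In macrophage-like cells Il1a stood at 1.26 and Il1rn at -0.68, and in migratory DC-like cells Il1b and Il1r2 stood at 1.89 and 1.87.

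For the remaining classes the members past the fold are given with the share of all genes that passed it. The count was 1 of 7 in monocyte-like cells (20.9% of genes), Il1r2, which stood at -0.13 without the cell richest in it in each library. It was 1 of 6 in cDC1-like cells (18.1%), Il1r2 again, at 1.04 (0.56 to 1.58). Both members with enough UMIs passed it in plasmacytoid DC-like cells (20.4%), Il1b at 0.81 and Il1r2 at 0.92, the latter -0.16 with a stricter gate. Of the Il1b UMIs there, 1 cell in each library held 32 of 41 and 42 of 78, and other settings gave 0.78 to 8.07. In NK-like cells 1 of 4 passed it (15.4%), which was Il1b from the single barcode. CD8 T-like cells had 3 of 8 (4.11%), Il18, Nlrp3 and Il1r1, all under 4 CPM, and CD4 T-like cells 1 of 8 (4.63%), Nlrp3 at 2.16 and 4.43 CPM. B-like cells had 1 of 5 (4.29%), Il1r2 at 13.1 and 20.5 CPM. Treg-like cells had 0 of 5, where 8.34% of genes passed it, and plasma cell-like cells 0 of 1 (17%). In ILC2-like cells no member had enough UMIs. Over all kept barcodes Il1b stood at 220 and 395 CPM (log2 0.84, 0.82 to 0.87), a larger ratio than in macrophage-like or Flt3-Zbtb46 myeloid cells. The library labelled NOD.Cxcl16-/- also held more of both classes (150 against 62 and 466 against 257 cells). Barcodes of more than 1 lineage had 380 and 622 CPM of Il1b, with 11458 of 20318 and 21935 of 38853 UMIs. The part of each in the ratio over all barcodes was not tested.

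A list of 42 further genes of the pathway, 41 of them in the files, was read in the same way. In macrophage-like cells 26 had enough UMIs, of which 1 was higher past the fold and 4 were lower, where 11.7% and 9.16% of all genes were. Txnip, a thioredoxin-binding protein, was the higher one (30.6 and 51.9 CPM, log2 0.74). The lower ones were the sensors of bacterial proteins Naip2 (59.6 and 35.9 CPM, -0.71) and Naip5 (18.7 and 10.8 CPM, -0.74), the pyrin gene Mefv (28.9 and 17.7 CPM, -0.68) and the ATP-gated channel P2rx7 (49.4 and 30.8 CPM, -0.66). In Flt3-Zbtb46 myeloid cells 30 had enough, with 2 higher and 3 lower, where 4.34% and 5.19% of all genes were. Ninj1, which ruptures the membrane of dying cells, had 28.8 and 49.2 CPM (0.75) and Mefv 6.36 and 10.9 CPM (0.69). Naip5 (-0.79), Naip6 (-0.70) and Sigirr, an inhibitory receptor (-0.61), were lower. The highest of the list in macrophage-like cells were regulators of NF-κB: Nfkbia at 2578 and 2706 CPM, Nfkbiz at 517 and 559 CPM and Nfkb1 at 231 and 336 CPM.

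Genes with the most similar pattern were ranked among 11142 genes by Pearson's r of log2(CPM + 1) over 18 points, the 9 classes with enough cells in each of the 2 libraries. The points share libraries and differ in depth, so r is a description. For Il1b these were Nlrp3 (r = 0.972), Tnfsf9, Aif1 (0.970), Cd300a (0.967) and Igsf6 (0.966). For Il18r1 they were Cd96, Slc25a24, Nmnat2 (0.968), Ipcef1 (0.966) and Il2rb. For Il1r1 they included Ltb4r1 (0.914), Cpne8 (0.865), Laptm4b (0.859) and Plcb3 (0.841). For Il18 they were Tnfsf13b (0.918), Ins1 (0.916), Ins2 (0.915), Plau (0.905) and Gm2449 (0.898), and the 2 insulin genes are the endocrine RNA of the macrophage-like class given above.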

How the data were processed

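The deposited counts are whole UMIs per gene and barcode, 1 matrix per library, which the authors made with Cell Ranger 7.0.1 on mm10, per the submitters' processing notes. Libraries used 3′ v3.1 chemistry, per the labels' protocols, and held 93553185 and 98681133 UMIs in 13859 and 10554 barcodes. Barcodes with at least 500 detected genes and at most 10% mitochondrial UMIs were kept. Of the 32285 gene IDs, 32158 matched GENCODE M21, which gave gene coordinates.

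Classes were gated on UMIs of marker genes. Myeloid gates took no barcode with more than 3 UMIs of T, B or plasma cell markers, lymphoid gates had similar limits, and barcodes of more than 1 lineage, possible doublets, entered no class. A simulated-doublet score was computed but not used for the reported values, a choice made after seeing the data, because it marked 104 of 471 gated myeloid barcodes in WT NOD and 0 of 786 in the other library. Members, lists and gates were chosen with earlier results of these data known, and gate thresholds were set with member values in view.

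UMIs were summed per class and given as CPM. A ratio is log2 of CPM with 1 added to each, and its interval is the exact conditional binomial interval of the ratio without that addition. Shares were compared after thinning each cell to 2000 UMIs (5000 for Il1b in single cells). The ratio step was tested on simulated data. Named genes were the 10 members, the 3 pathway genes highest in macrophage-like cells, pathway genes past 1.5-fold in macrophage-like cells or the class with most Il1b UMIs, and the 5 genes most correlated with Il1b, Il18, Il1r1 and Il18r1, of which 1 is not reported here. Alternatives covered filters, gates, thinning, scaling, pseudocount, doublets, cell depth and single cells. Python 3.11.15, numpy 2.4.6, scipy 1.17.1, pandas 2.3.3 and scikit-learn 1.9.0 were used.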

Additional observations from a re-analysis of the deposited data

Results flagged for a closer look

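The ratio between the libraries differed in sign or size between classes for Il1b and Il1r1, and these differences were not tested. For Il1b the log2 ratio was 1.89 in migratory DC-like cells, 0.81 in plasmacytoid DC-like cells, 4.76 in NK-like cells. The gamma-delta T-like class had -6.26. The NK-like and gamma-delta T-like values come from 1 barcode each that held nearly all of the Il1b UMIs. The gamma-delta T-like value, against 0 UMIs, depends on the added 1 CPM and is no bound. In plasmacytoid DC-like cells 1 barcode in each library held 32 of 41 and 42 of 78 Il1b UMIs. For Il1r1 the log2 ratio was 1.38 in gamma-delta T-like cells and -0.67 in CD8 T-like cells, the latter from 26 and 7 UMIs.

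Barcodes left out by the filters, 1607 in WT NOD and 340 in the library labelled NOD.Cxcl16-/-, also held member UMIs above the limit of 3 counts (2.66 and 11.5 CPM). Il1b stood there at 102 and 286 CPM, Il1r2 at 52.4 and 199 CPM and Nlrp3 at 17.8 and 64.9 CPM. Il18r1 stood at 64.0 and 64.9 CPM, Il18rap at 16.9 and 19.1 CPM and Casp1 at 62.2 and 45.8 CPM. In WT NOD alone Il18 (6.22 CPM) and Il1rn (10.7 CPM) were above the limit.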

How the results depend on the processing

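With 1 library per group, all intervals cover counting error only, and no setting can show the spread between mice. Of 841 values recomputed over 73 log2 ratios and 12 settings, 769 stayed within their counting interval, 65 moved beyond it and 7 that had passed 1.5-fold changed sign, and the cause was not tested. The setting without removal by doublet score was the reported analysis itself, so its 73 values, counted among the 769, could not move. After thinning to 2000 UMIs the log2 ratio was 0.26 for Il1b and 2.49 for Il1a in macrophage-like cells and 0.25 for Il1b in Flt3-Zbtb46 myeloid cells, and, among values past 1.5-fold, it changed sign for Il1r1 in macrophage-like (0.71) and CD8 T-like cells (0.24) and Nlrp3 in migratory DC-like cells (-1.13). These 3 values rest on 7 or fewer UMIs a library in 1 random draw, and in a second draw the CD8 T-like and migratory DC-like values did not change sign (-0.60 and 0.33). Without the limit on other lineages it was 0.44 for Il1b and 0.60 for Il1r2 in Flt3-Zbtb46 myeloid cells, -0.0084 for Il1rn in macrophage-like cells and -0.023 for Nlrp3 in migratory DC-like cells. With removal by doublet score Il1b in macrophage-like cells was 0.18, Il1r1 there 0.46, and the WT NOD share of gated Il1b UMIs in Flt3-Zbtb46 myeloid cells 63.9%. With a gate stricter by 1 UMI that share was 62.8%, Il1r1 in gamma-delta T-like cells 0.76 and Il1r2 in plasmacytoid DC-like cells -0.16. In cells with at least 5000 UMIs the share was 63.1% and Il1r1 in gamma-delta T-like cells 2.03. The mean over cells gave 0.32 for Il1b in Flt3-Zbtb46 myeloid cells, and leaving out the cell richest in the gene gave -0.13 for Il1r2 in monocyte-like cells. With no filter on low counts, 48.7% of genes in macrophage-like and 15.0% in Flt3-Zbtb46 myeloid cells passed 1.5-fold. The settings on the added doublet score, cell depth, other lineages and richest cell were chosen after seeing the data. No paired analysis was possible because each group is 1 library.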

Other observations

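Other genes of the family had their own cells, singled out after their values were seen. Il33 RNA was found in cDC1-like cells at 47.1 and 35.99 CPM (43 and 39 UMIs), and Il1rl1, the receptor gene of interleukin-33, at 357 and 280 CPM in ILC2-like cells (19 and 23 UMIs) and at 18.8 and 23.3 CPM in Treg-like cells. Il18bp, the decoy for interleukin-18, stood at 136 and 95.8 CPM in macrophage-like cells.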
